A study of Mus musculus with 8 samples.

Results

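The genes described here are 39 genes of the cell cycle and of DNA replication, chosen by symbol from a fixed list, and all 39 were found among the 38355 genes of each count table. Of these, 13 act in S phase, 21 act mainly from late S phase through mitosis, 3 are D-type cyclins and 2 are inhibitors of cyclin-dependent kinases (CDKs). All 39 passed the filter on low counts, which left 16068 genes to test. They were read in total RNA from thoracic dorsal root ganglia taken with the adjoining spinal cord of C57Bl6 mouse embryos at E11.5. The WT group held 4 libraries labelled wild type, and the KO group held 4 libraries labelled Prdm12-/-, which lack the zinc-finger factor Prdm12. No other allele or treatment is named, nor is the part of Prdm12 that was deleted. The labels do not say whether a library is 1 embryo or a pool, so p-values measure only the spread between these libraries. The design text speaks of triplicates, whereas 4 libraries per genotype are listed and used here.

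A dividing cell passes from a growth phase into S phase, when it copies its DNA, and then into mitosis. D-type cyclins with their CDKs open the way into S phase by inactivating the retinoblastoma proteins, which frees E2F factors to activate replication genes, while p21 and p27 hold the kinases back. Mitotic genes are switched on later, largely through promoters with CCAAT boxes and a cell cycle homology region (CHR) read by the DREAM and MYB-FOXM1 complexes. In the embryonic spinal cord, progenitors along the central canal divide while the neurons they produce leave the cycle, and in the ganglia neurons and crest-derived precursors lie side by side.

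Library totals were 23088908 to 28500792 counts in 7 libraries and 67782435 in WT replicate 1, 2.55 times the median of the others. Prdm12 stood at 22.2, 37.9, 39.6 and 31.9 CPM in WT replicates 1 to 4 and 1.55, 1.52, 0.975 and 0.962 CPM in KO replicates 1 to 4, so each library matched its label. CPM, the usual depth-scaled count, was also corrected for library composition. Every member was well counted: the lowest count of any member in any library was 749 (Ccne2), where counting error alone is 3.65%, and the highest was 61967 (Top2a). Markers fixed for neurons, neural progenitors, sensory neurons and crest were all above 0 in each library, as were those of muscle, mesenchyme, blood cells, endothelium and macrophages. The values below are therefore sums over all these tissues, in which more cells of a type and more RNA per cell cannot be told apart.

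The promoters of S phase and mitotic members differed in how often they held E2F or CHR letters, and 6 that hold such letters are shown as examples. Both S phase examples hold E2F letters, which stood in 6 of the 12 S phase windows. Any part of these letters in the levels per library was not tested. RefSeq windows of 300 bases (build GRCm38.p6, 250 before to 50 after the start) were found for 31 of the 39 members, in 34 windows. The members without one are Mcm4, Ccne2, Ccna2, Aurkb, Tpx2, Kif20a, Ccnd1 and Ccnd2. Each stretch below runs from 160 bases before to 30 after the RefSeq start, 5′ to 3′ on the gene's strand, and capitals mark matches on either strand to E2F letters (TTTCCCGC, TTTGGCGC, TTTCGCGC or TTTGCCGC), CHR letters (TTTGAA or TTTCAA) or CCAAT. Mcm5 and Mcm6 encode subunits of the replicative helicase. Cdk1 and Ccnb2 encode the mitotic kinase and a B-type cyclin that activates it, Cdc20 an activator of the anaphase-promoting complex (APC/C), and Kif11 a spindle motor.
Mcm5 (chr8:75109349-75109538, plus strand): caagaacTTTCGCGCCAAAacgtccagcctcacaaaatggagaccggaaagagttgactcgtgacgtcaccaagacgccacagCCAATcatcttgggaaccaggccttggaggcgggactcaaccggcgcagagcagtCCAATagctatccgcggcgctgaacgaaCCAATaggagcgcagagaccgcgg
Mcm6 (chr1:128359676-128359865, minus strand): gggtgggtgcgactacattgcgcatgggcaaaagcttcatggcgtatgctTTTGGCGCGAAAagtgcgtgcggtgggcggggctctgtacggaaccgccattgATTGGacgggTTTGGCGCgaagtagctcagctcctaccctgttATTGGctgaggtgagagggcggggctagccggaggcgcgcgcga
Cdk1 (chr10:69352883-69353072, minus strand): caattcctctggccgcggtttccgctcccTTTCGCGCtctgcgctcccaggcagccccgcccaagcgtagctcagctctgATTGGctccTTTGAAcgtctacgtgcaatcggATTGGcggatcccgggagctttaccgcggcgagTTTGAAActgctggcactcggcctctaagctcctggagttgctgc
Ccnb2 (chr9:70421525-70421714, minus strand): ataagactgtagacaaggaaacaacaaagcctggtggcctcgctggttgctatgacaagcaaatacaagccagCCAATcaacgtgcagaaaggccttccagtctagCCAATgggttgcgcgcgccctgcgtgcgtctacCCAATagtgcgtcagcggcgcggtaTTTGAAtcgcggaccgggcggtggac
Cdc20 (chr4:118437314-118437503, minus strand): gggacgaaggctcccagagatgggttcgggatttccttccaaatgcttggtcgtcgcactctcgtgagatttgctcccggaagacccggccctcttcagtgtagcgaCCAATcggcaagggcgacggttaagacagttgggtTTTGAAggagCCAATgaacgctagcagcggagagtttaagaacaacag
Kif11 (chr19:37376222-37376411, plus strand): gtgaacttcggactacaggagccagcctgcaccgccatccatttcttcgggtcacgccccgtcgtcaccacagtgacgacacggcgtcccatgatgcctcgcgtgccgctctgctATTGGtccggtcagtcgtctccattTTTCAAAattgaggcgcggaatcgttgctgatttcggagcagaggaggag

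In the Mcm5 stretch the E2F letters of both strands overlap in 1 run of capitals, and the same holds for the first such run of Mcm6. CHR letters on opposite strands also overlap in a run such as that nearest the start of Kif11. There TTTCAAA matches both CHR search words, so the run is a single stretch and not separate elements. E2F letters stood in 6 of the 12 windows of S phase genes (50%), those of Mcm3, Mcm5, Mcm6, Mcm7, Cdc6 and Cdt1, in 1 of the 17 mitotic windows (5.88%, Cdk1), and in 2.26% of all 32851 promoter windows. CHR letters stood in 13 of the 17 mitotic windows (76.5%), in 2 of the 12 S phase windows (16.7%) and in 25.1% of all. CCAAT stood in 16 mitotic windows (94.1%), in 9 S phase windows (75.0%) and in 37.4% of all. CHR letters and CCAAT occurred together in 13 mitotic windows (76.5%), against 9.75% of all windows. These are matches of letters in a fixed window and not measured binding sites.

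No difference between KO and WT passed the test in any of the 39 cell cycle genes. With edgeR's quasi-likelihood test 0 rose and 0 fell at an adjusted p under 0.05, where 0.056% of all tested genes were called higher and 0.243% lower, 0.299% in all. DESeq2 and limma-voom also called 0 members (0.667% and 0.716% of genes by those tools), and 0 members had an unadjusted p under 0.05 with any of the 3 tools, against 6.35% of all genes with edgeR. The smallest adjusted p by edgeR was 0.869. In 0 members did the KO libraries lie wholly above or wholly below the WT libraries, against 1.69% and 2.45% of all tested genes, 4.14% in all. Log2 fold changes of KO over WT ran from −0.11 (Rrm2) to 0.21 (Cdkn1a), with a median of −0.03 against 0.00 over all tested genes.

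The intervals were narrow. For 37 of the 39 members the 95% interval of the fold change lay within 1.25-fold in either direction, and for all 39 within 1.5-fold. Over all tested genes, 63% had an interval within 1.25-fold, and among the 6642 genes in the same range of abundance 93.6% did. The 2 members whose intervals reached past 1.25-fold were Rrm2, down to 0.792-fold, and Cdkn1a, up to 1.4-fold. The intervals are for each gene alone and are not adjusted over the members.

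**Figure D1:**
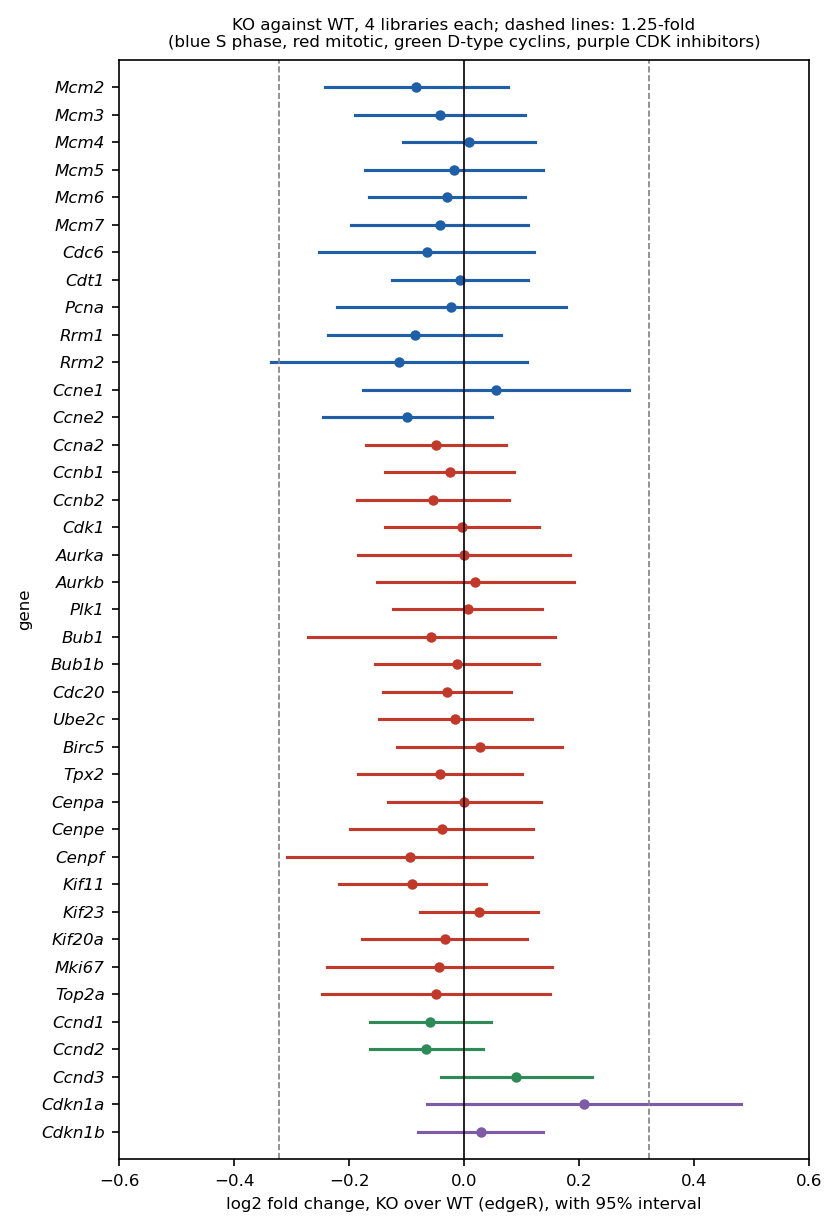
Log2 fold change of KO over WT (x axis, edgeR) for each of the 39 genes (y axis), points with 95% intervals from 4 libraries per group; colours give the class and dashed lines mark 1.25-fold. Every interval includes 0, and those of Rrm2 and Cdkn1a reach past a dashed line.

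Mcm2 to Mcm7 form the ring-shaped helicase that opens DNA at replication origins, and Cdc6 and Cdt1 load it. Mcm2, the member of these 8 with the smallest p, stood at 351, 294, 299 and 309 CPM in WT replicates 1 to 4 and 305, 261, 296 and 322 CPM in KO replicates 1 to 4. WT replicate 1 was the highest library and KO replicate 2 the lowest, and the groups overlapped (log2 fold change −0.08, SE 0.07, 95% interval −0.24 to 0.08, edgeR adjusted p = 0.928). Mcm5, the most abundant of the 8 per kilobase of exon, stood at 307, 267, 274 and 281 CPM in WT replicates 1 to 4 and 282, 245, 278 and 311 CPM in KO replicates 1 to 4. Its highest library was KO replicate 4 and its lowest KO replicate 2, so that both extremes lay within KO (log2 fold change −0.02, SE 0.07, 95% interval −0.17 to 0.14, edgeR adjusted p = 0.988). The log2 fold changes of Mcm3, Mcm4, Mcm6 and Mcm7 were −0.04, 0.01, −0.03 and −0.04. Those of the loaders Cdc6 and Cdt1 were −0.07 and −0.01. The 6 helicase genes, whose products form 1 complex, had mean levels of 43.8 (Mcm2) to 70.3 (Mcm5) CPM per kilobase of merged exons. This was a 1.6-fold range that became 1.34-fold (67.6 for Mcm4 to 90.4 for Mcm2) when the longest protein-coding transcript was used as the length, so the order within the ring depends on the gene model.

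Pcna encodes the sliding clamp of the DNA polymerases, and Rrm1 and Rrm2 the subunits of ribonucleotide reductase, which makes the building blocks of DNA. Pcna stood at 131, 99.9, 110.5 and 119.8 CPM in WT replicates 1 to 4 and 111, 99.8, 119 and 125 CPM in KO replicates 1 to 4. The 2 groups spanned nearly the same range (log2 fold change −0.02, SE 0.09, 95% interval −0.22 to 0.18, edgeR adjusted p = 0.987). Rrm1 stood at 417, 339, 359 and 354 CPM in WT replicates 1 to 4 and 350.4, 316, 370.2 and 348 CPM in KO replicates 1 to 4 (log2 fold change −0.09, SE 0.07, 95% interval −0.24 to 0.06, edgeR adjusted p = 0.92). Rrm2 stood at 343, 254, 243 and 275 CPM in WT replicates 1 to 4 and 255, 236, 277 and 263 CPM in KO replicates 1 to 4. Its WT replicate 1 was the highest value by a wide margin, 343 against 275 CPM in the next WT library, and 3 of the 4 KO values lay within the WT range (log2 fold change −0.11, SE 0.10, 95% interval −0.34 to 0.11, edgeR adjusted p = 0.929). Without WT replicate 1 the log2 fold change of Rrm2 was 0.01.

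The E-type cyclins activate CDK2 at the entry into S phase. Ccne1 stood at 88.7, 74.8, 71.2 and 68.5 CPM in WT replicates 1 to 4 and 74.5, 66.8, 85.7 and 89.2 CPM in KO replicates 1 to 4 (log2 fold change 0.06, SE 0.10, 95% interval −0.18 to 0.29, edgeR adjusted p = 0.97). Ccne2 stood at 41.0, 35.2, 36.2 and 37.0 CPM in WT replicates 1 to 4 and 37.4, 32.8, 36.8 and 32.7 CPM in KO replicates 1 to 4 (log2 fold change −0.10, SE 0.07, 95% interval −0.25 to 0.05, edgeR adjusted p = 0.901). KO replicate 4 held the highest Ccne1 value of all 8 libraries and the lowest Ccne2 value, so the pair did not vary together there. The gene body of Ccne2 overlaps Ints8 on the other strand, and whether the counting kept strands apart is not known here. The same holds for Mcm7 (Cops6 and Ap4m1), Ccna2 (Exosc9), Cdc20 (Elovl1) and Kif20a (Cdc23).

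Ccna2, Ccnb1 and Ccnb2 encode the cyclins that drive the cell through S phase and into mitosis with Cdk1. Ccnb2, which had both the smallest p and the highest level per kilobase of these 4, stood at 106, 94.8, 91.1 and 95.2 CPM in WT replicates 1 to 4 and 94.6, 84.2, 97.7 and 96.8 CPM in KO replicates 1 to 4. WT replicate 1 was highest and KO replicate 2 lowest (log2 fold change −0.05, SE 0.06, 95% interval −0.19 to 0.08, edgeR adjusted p = 0.95). A processed copy, Ccnb2-ps, held 149 to 559 counts per library, and how reads common to both were assigned is not given in the sources used here. Cdk1 had a mean of 142 ± 12.3 CPM over the WT libraries against 142 ± 7.06 CPM over the KO libraries (SD, n = 4 each). Ccna2 had a mean of 229 ± 10.9 CPM over the WT libraries against 221 ± 15.2 CPM over the KO libraries (SD, n = 4 each). Ccnb1 had a mean of 56.1 ± 2.24 CPM over the WT libraries against 55.2 ± 3.06 CPM over the KO libraries (SD, n = 4 each). The 4 log2 fold changes ran from −0.05 (Ccnb2) to 0.00 (Cdk1).

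The kinases Aurka, Aurkb and Plk1, the spindle checkpoint kinases Bub1 and Bub1b, the spindle assembly factor Tpx2, survivin (Birc5) and the APC/C genes Cdc20 and Ube2c act in mitosis itself. Tpx2 stood at 298, 257, 257 and 256 CPM in WT replicates 1 to 4 and 256, 236, 277 and 269.5 CPM in KO replicates 1 to 4 (log2 fold change −0.04, SE 0.07, 95% interval −0.18 to 0.10, edgeR adjusted p = 0.961). Cdc20, the most abundant of these 9 per kilobase, stood at 152, 136, 145 and 149 CPM in WT replicates 1 to 4 and 144, 131, 148 and 147 CPM in KO replicates 1 to 4 (log2 fold change −0.03, SE 0.05, 95% interval −0.14 to 0.08, edgeR adjusted p = 0.965). In both genes KO replicate 2 was the lowest of the 8 libraries. The log2 fold changes of the 9 genes ran from −0.06 for Bub1 to 0.03 for Birc5, with 3 above 0 and 6 below. Aurka, whose log2 fold change was 0.00, had a mean of 88.9 ± 6.94 CPM over the WT libraries against 89.0 ± 10.3 CPM over the KO libraries (SD, n = 4 each).

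Cenpa is the histone variant that marks centromeres, Cenpe and Cenpf bind kinetochores, and Kif11, Kif23 and Kif20a are motors of the spindle and of cell division. Kif11, with the second smallest p of all members, stood at 227, 199.8, 191 and 194 CPM in WT replicates 1 to 4 and 188, 181, 197 and 199 CPM in KO replicates 1 to 4. The groups overlapped through KO replicates 3 and 4 (log2 fold change −0.09, SE 0.06, 95% interval −0.22 to 0.04, edgeR adjusted p = 0.891). Kif20a, the most abundant of the 6 per kilobase, stood at 156, 139, 137 and 145 CPM in WT replicates 1 to 4 and 140.3, 124, 149 and 152 CPM in KO replicates 1 to 4 (log2 fold change −0.03, SE 0.07, 95% interval −0.18 to 0.11, edgeR adjusted p = 0.971). Kif23 was the only mitotic gene with WT replicate 1 below the mean of the other WT libraries (0.988 of it). It was also the only one with KO replicate 2 above the mean of the other KO libraries (1.02 of it). WT replicate 1 and KO replicate 2 stood at 90.9 and 94.8 CPM within an overall range of 86.7 to 98.3 CPM. Its highest and lowest libraries, KO replicate 3 and WT replicate 2, were also those of Birc5. The biological coefficient of variation of Kif23, the spread beyond counting error, was 5.24%, the lowest among the members.

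Mki67 and Top2a, a protein coating mitotic chromosomes and the topoisomerase that untangles DNA, are standard labels of dividing cells. Mki67 stood at 614, 506, 467 and 464 CPM in WT replicates 1 to 4 and 516, 449, 524 and 502 CPM in KO replicates 1 to 4. Top2a stood at 920.5, 768, 722 and 720.3 CPM in WT replicates 1 to 4 and 794, 653, 802 and 777 CPM in KO replicates 1 to 4. In both genes WT replicate 1 was the highest and KO replicate 2 the lowest library, and the other 6 lay between them. The KO values fell inside the WT range apart from KO replicate 2. Mki67 had a mean of 513 ± 70.0 CPM over the WT libraries against 498 ± 33.8 CPM over the KO libraries (SD, n = 4 each). Its test gave log2 fold change −0.04, SE 0.09, 95% interval −0.24 to 0.15, edgeR adjusted p = 0.974. Top2a had a mean of 783 ± 94.5 CPM over the WT libraries against 757 ± 69.8 CPM over the KO libraries (SD, n = 4 each), with log2 fold change −0.05, SE 0.09, 95% interval −0.25 to 0.15, edgeR adjusted p = 0.97.

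The D-type cyclins link growth signals to the cell cycle. Ccnd1 (ENSMUSG00000070348, chromosome 7, 144929931 to 144939925, minus strand, GENCODE M21 on GRCm38) stood at 417, 445, 425 and 449 CPM in WT replicates 1 to 4 and 449, 403, 411 and 403 CPM in KO replicates 1 to 4. Its highest values were in WT replicate 4 and KO replicate 1 (log2 fold change −0.06, SE 0.05, 95% interval −0.16 to 0.05, edgeR adjusted p = 0.92). Ccnd2 (ENSMUSG00000000184, chromosome 6, 127125162 to 127152193, minus strand) stood at 759, 741, 709 and 696 CPM in WT replicates 1 to 4 and 704, 656, 715 and 700.3 CPM in KO replicates 1 to 4 (log2 fold change −0.07, SE 0.04, 95% interval −0.16 to 0.03, edgeR adjusted p = 0.901). Ccnd3 (ENSMUSG00000034165, chromosome 17, 47505051 to 47599691, plus strand) stood at 170.5, 165, 163 and 165 CPM in WT replicates 1 to 4 and 167, 161, 179.9 and 199 CPM in KO replicates 1 to 4. The 4 WT libraries lay close together, and KO replicates 3 and 4 stood above them while KO replicate 2 stood below (log2 fold change 0.09, SE 0.06, 95% interval −0.04 to 0.22, edgeR adjusted p = 0.895). Without KO replicate 2 the log2 fold change of Ccnd3 was 0.13, with an unadjusted p under 0.05 and an edgeR adjusted p of 0.826. Leaving out KO replicate 1 instead gave Ccnd1 a log2 fold change of −0.10 (edgeR adjusted p = 0.83), with no overlap between groups. That fit was 1 of 8 that each left out a library. The share of all tested genes without overlap in it is not given here.

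The balance among the 3 D-type cyclins was close to constant in reads. Ccnd2 held 53.1% to 56.4% of their summed CPM, Ccnd1 30.9% to 34.3%, and Ccnd3 12.2% to 15.3%, with the highest Ccnd3 share in KO replicate 4. Per kilobase of merged exons the mean levels were 90.3 for Ccnd1, 75.5 for Ccnd2 and 19.5 for Ccnd3. With the longest protein-coding transcript as the length they were 114 for Ccnd1, 112 for Ccnd2 and 81.0 for Ccnd3. The libraries of Ccnd1 and Ccnd2 did not overlap per kilobase of merged exons (85.5 to 95.3 and 69.8 to 80.7 CPM per kilobase), but the 2 means nearly coincide with the other length, so their order is not settled. Ccnd3 was the lowest with either length. Ccnd1 and Ccnd3 overlap genes on the other strand, LTO1 and Bysl.

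Cdkn1a encodes p21, a target of p53, and Cdkn1b encodes p27. Cdkn1a (ENSMUSG00000023067, chromosome 17, 29090976 to 29100727, plus strand) stood at 34.4, 33.3, 36.1 and 33.0 CPM in WT replicates 1 to 4 and 35.3, 34.1, 36.7 and 52.4 CPM in KO replicates 1 to 4. The 7 other libraries lay between 33.0 and 36.7 CPM, and KO replicate 4 alone was at 52.4 CPM (log2 fold change 0.21, SE 0.12, 95% interval −0.06 to 0.48, edgeR adjusted p = 0.869). Without KO replicate 4 its log2 fold change was 0.05. In the same library the summed CPM of 7 skeletal muscle markers was 855, against 520 to 686 in the other 7; the part of this in the Cdkn1a value was not tested. Cdkn1b stood at 83.8, 91.9, 91.1 and 87.3 CPM in WT replicates 1 to 4 and 93.0, 89.9, 94.5 and 83.6 CPM in KO replicates 1 to 4. Its values spanned 1.13-fold over all libraries (log2 fold change 0.03, SE 0.05, 95% interval −0.08 to 0.14, edgeR adjusted p = 0.964).

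**Figure D2:**
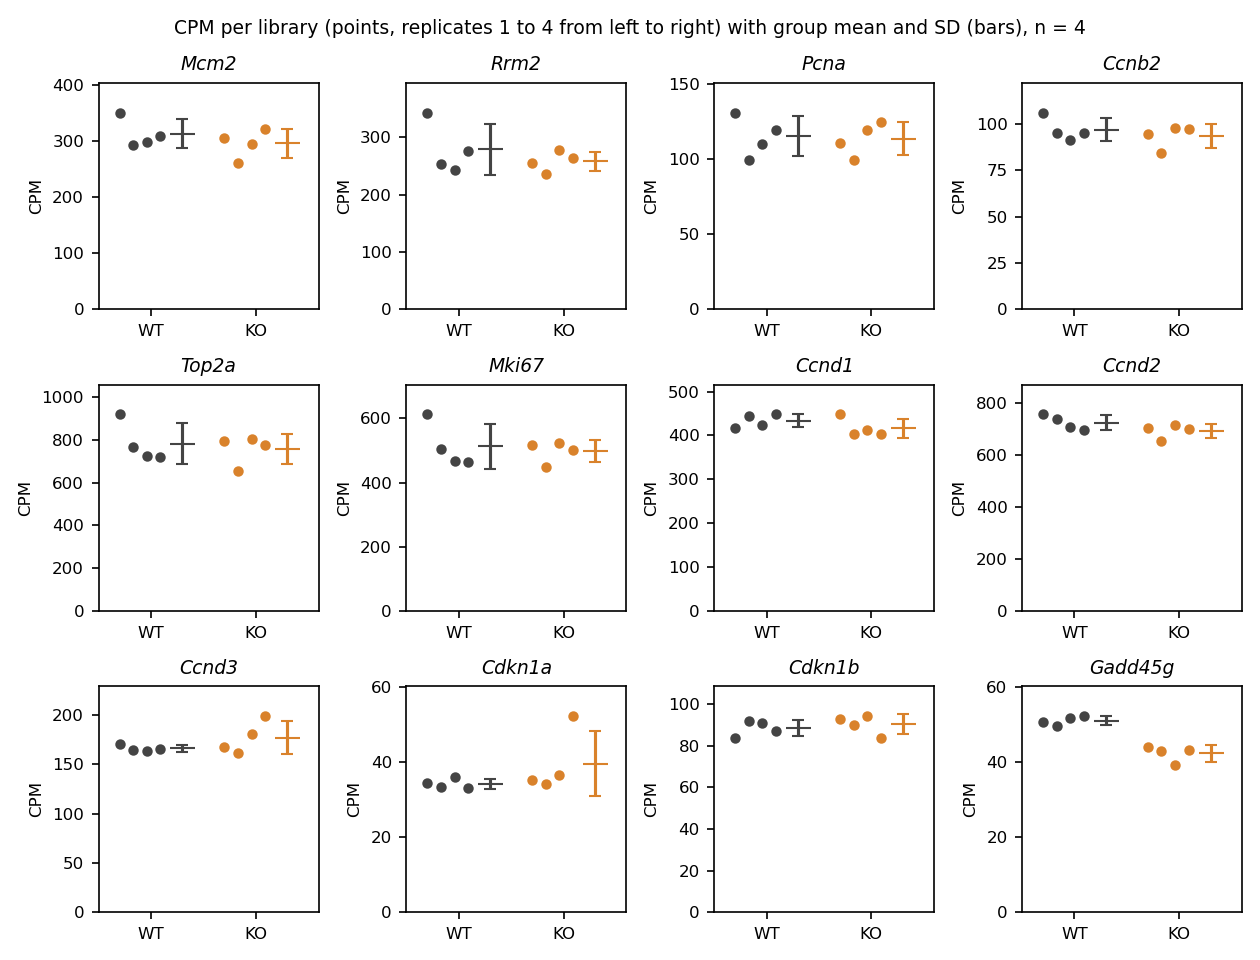
CPM (y axis, from 0) of 12 genes in the 4 WT and 4 KO libraries (points, replicates 1 to 4 from left to right), with the group mean and SD as bars. WT replicate 1 is the highest point for Mcm2, Rrm2, Pcna, Ccnb2, Top2a, Mki67 and Ccnd2, KO replicate 4 stands alone for Cdkn1a, and of the 12 panels the Gadd45g panel alone shows groups that do not overlap.

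Single libraries of the same genotype spanned a wider range in the members than the gap between the group means. The members' median log2 level relative to each gene's mean spanned 0.21 among the WT and 0.22 among the KO libraries. The group means of it differed by −0.03 (KO minus WT). A range of single libraries and a difference of means are unlike measures, so this is a description only. WT replicate 1 was the highest of the 8 libraries in 29 of 39 members and KO replicate 2 the lowest in 31. Over all tested genes, WT replicate 1 was highest in 20.2% and KO replicate 2 lowest in 17.3%, and among genes of the members' range of abundance in 29.5% and 24.6%. Both libraries stood at the other extreme about as often: WT replicate 1 was lowest in 20.6% of all tested genes and KO replicate 2 highest in 16.2%. Among the members each was so in 0. By class, WT replicate 1 was highest in 11 of 13 S phase and 17 of 21 mitotic genes, but in 1 of 3 D-type cyclins (Ccnd2) and in 0 of 2 CDK inhibitors. KO replicate 2 was lowest in 12 of 13 S phase and 17 of 21 mitotic genes, in 2 of 3 D-type cyclins and in 0 of 2 inhibitors. These counts were chosen after the values were seen and describe these 8 libraries.

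In size, WT replicate 1 exceeded the mean of the other 3 WT libraries by a median factor of 1.17 over the S phase genes (1.07 for Cdt1 to 1.33 for Rrm2). The factor was 1.13 over the mitotic genes (0.988 for Kif23 to 1.30 for Cenpf) and 1.04 over the D-type cyclins. KO replicate 2 stood at a median of 0.863 of the mean of the other KO libraries over the S phase genes and 0.880 over the mitotic genes, with Aurka lowest at 0.800. The 13 S phase genes together held 0.295% of scaled reads in WT replicate 1, 0.245% to 0.256% in the other WT libraries, 0.228% in KO replicate 2 and 0.256% to 0.267% in the other KO libraries. The 21 mitotic genes held 0.453%, 0.378% to 0.389%, 0.352% and 0.397% to 0.415% in the same order. S phase and mitotic genes thus kept the same order for the highest and the lowest library.

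**Figure D3:**
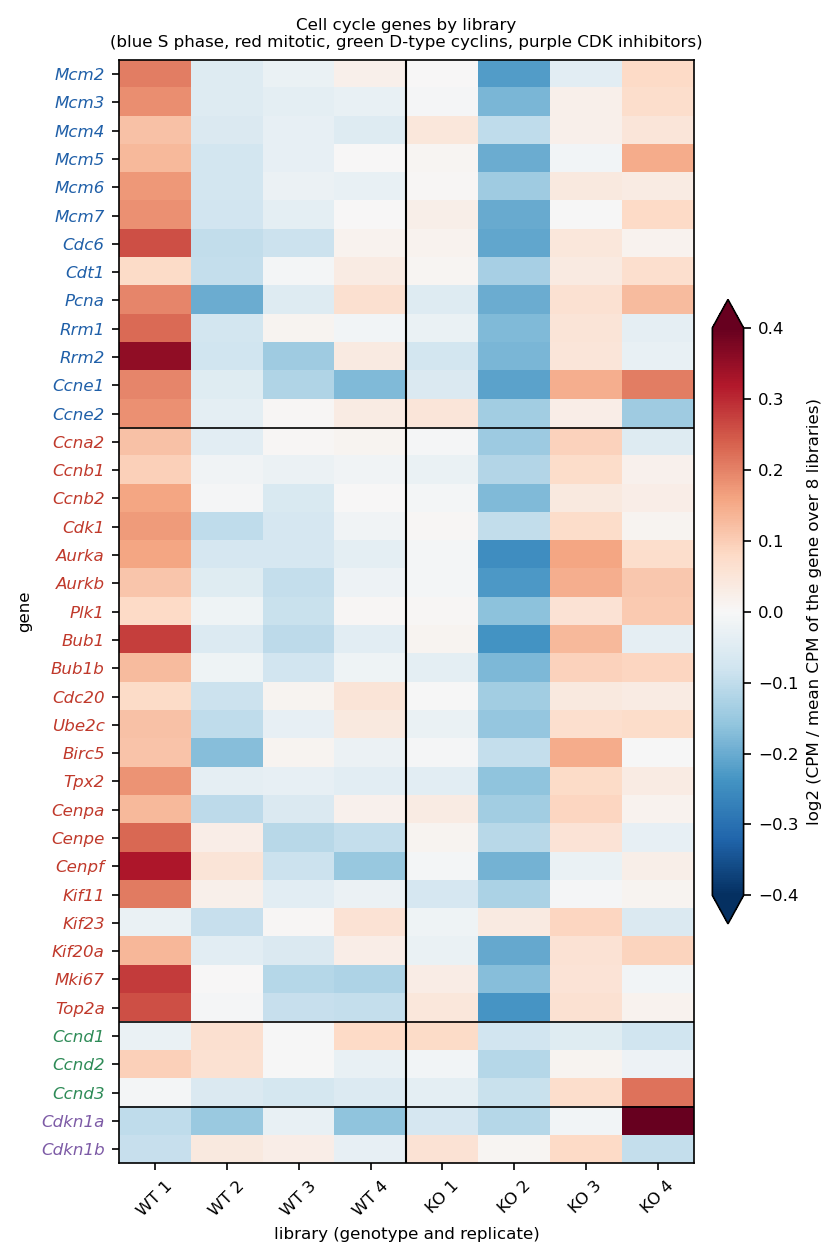
Heat map of the 39 genes (rows, coloured by class) in the 8 libraries (columns), showing log2 of CPM over the gene's mean of 8 libraries, with colours saturating at 0.4 either way. The S phase and mitotic rows are red in WT replicate 1 and blue in KO replicate 2, with Kif23 as an exception, while the D-type cyclin and CDK inhibitor rows are paler there and Cdkn1a is darkest in KO replicate 4.

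The sign of the small group difference changed without either library. With all 8 libraries 29 of 39 members had a log2 fold change below 0 (51.6% of all tested genes did). Without WT replicate 1 the number was 8, and the median over the members was 0.03 in place of −0.03. Without KO replicate 2 it was 12, with a median of 0.01. With limma-voom, which weights libraries by quality, it was 11. In none of these fits was a member called. The members' biological coefficient of variation had a median of 7.26%, and that of genes in the same range of abundance 5.93%.

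The other genes of the pathway gave similar values. Of 43 further replication genes (origin recognition, GINS, polymerases, clamp loader, nucleotide synthesis) 0 were called by edgeR and 0 had an unadjusted p under 0.05, with a median log2 fold change of −0.03. The 2 with the smallest p were Orc2 (log2 fold change −0.12, edgeR adjusted p = 0.849) and Pola1 (−0.12, edgeR adjusted p = 0.869). Of 40 further mitotic genes 0 were called and 0 had an unadjusted p under 0.05, with a median of −0.03. Knl1 and Ect2 came first, at −0.13 and −0.13. DESeq2 and limma-voom called 0 genes of either list, with 0 genes (DESeq2) and 1 gene (limma-voom, mitotic) at an unadjusted p under 0.05. WT replicate 1 was the highest library in 33 of the 43 replication genes and 31 of the 40 mitotic genes, and KO replicate 2 the lowest in 31 and 28.

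Of 25 genes of transcriptional and CDK control (E2F, retinoblastoma and MYC families, CDKs) 0 were called by edgeR, DESeq2 or limma-voom. By each tool 1 had an unadjusted p under 0.05, against 6.35% of all tested genes with edgeR. With edgeR that gene was Mycn, a growth regulator of neural progenitors, at 94.3, 89.7, 86.3 and 91.3 CPM in WT replicates 1 to 4 and 82.4, 74.2, 79.3 and 86.3 CPM in KO replicates 1 to 4 (log2 fold change −0.17, SE 0.05, 95% interval −0.28 to −0.05, edgeR adjusted p = 0.501). KO replicate 4 was level with the lowest WT library, so the groups touched. Rbl1, a retinoblastoma relative, followed at a log2 fold change of −0.10 (edgeR adjusted p = 0.852).

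Of 12 genes linked to leaving the cycle 10 were tested and 0 were called by edgeR. At an edgeR unadjusted p under 0.05, 2 were lower, as were 533 of all 16068 tested genes. Gadd45g, a stress and differentiation gene of newborn neurons, stood at 50.6, 49.5, 51.8 and 52.4 CPM in WT replicates 1 to 4 and 44.1, 43.0, 39.1 and 43.2 CPM in KO replicates 1 to 4. All 4 KO libraries lay below all 4 WT libraries, as in 2.45% of all tested genes, and it was the 1 gene of the 10 to do so. It had a mean of 51.1 ± 1.29 CPM over the WT libraries against 42.4 ± 2.21 CPM over the KO libraries (SD, n = 4 each). The test gave log2 fold change −0.27, SE 0.05, 95% interval −0.38 to −0.16, edgeR adjusted p = 0.0541, just above the threshold. DESeq2 and limma-voom called it (adjusted p = 0.000918 and 0.02), as did edgeR without the filter on low counts (adjusted p = 0.0305) and without WT replicate 1 (0.0429). It was not called by edgeR with the stricter filter (adjusted p = 0.0559), DESeq2 size factors (0.0608), library totals (0.0793) or the replicate block (0.149). Leaving out any other single library gave an edgeR adjusted p between 0.0998 and 0.238, and its log2 fold change lay between −0.29 and −0.23 in every fit. Btg2, an antiproliferative gene of neurogenic divisions, stood at 82.5, 86.9, 81.0 and 88.5 CPM in WT replicates 1 to 4 and 81.9, 80.7, 74.1 and 69.2 CPM in KO replicates 1 to 4 (log2 fold change −0.15, SE 0.06, 95% interval −0.27 to −0.02, edgeR adjusted p = 0.708). Cdkn1c, which encodes p57, had a mean of 1047 ± 88.8 CPM over the WT libraries against 1093 ± 88.3 CPM over the KO libraries (SD, n = 4 each) and a log2 fold change of 0.06.

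Summed levels of cell type markers are given beside these values. The summed CPM of 9 neural progenitor markers was 3221 to 3529 in WT and 3021 to 3196 in KO, and that of 8 neuron markers 3789 to 4432 and 3624 to 4099. The medians of their log2 fold changes were −0.18 and −0.15, all 17 were below 0, and 0 were called by edgeR. In each list 5 had an edgeR unadjusted p under 0.05, and 533 of all 16068 tested genes were lower at that level. DESeq2 called 0 of the 17 and limma-voom 1, the neuronal RNA-binding gene Elavl4. Of 8 sensory neuron markers 3 fell by edgeR (0.243% of all tested genes did), with sums of 313 to 448 in WT and 284 to 319 in KO. DESeq2 and limma-voom each called 4 of them lower (0.667% and 0.716% of genes were called in either direction by those tools). In 4 of the 8, and in the progenitor marker Vim, the KO libraries lay wholly below WT (2.45% of all tested genes). Sums were 1997 to 2685 and 2563 to 2864 for sclerotome and mesenchyme, 520 to 632 and 584 to 855 for skeletal muscle, and 3037 to 3956 and 2158 to 5025 for blood cells of the erythroid line. All 7 muscle markers had a log2 fold change above 0 (median 0.28), and 0 were called by edgeR. Of them 5 had an edgeR unadjusted p under 0.05, and 487 of all 16068 tested genes were higher at that level. In 2 the KO libraries lay wholly above WT (1.69% of all tested genes). All 8 mesenchyme markers were above 0 (median 0.13), with 0 at an unadjusted p under 0.05. Sums of crest and glia markers (450 to 553 and 429 to 526), endothelium (346 to 396 and 348 to 415) and macrophages (29.3 to 35.9 and 30.9 to 33.1) overlapped between groups. KO replicate 2 had the lowest erythroid sum, 2158, and WT replicate 1 the highest progenitor sum and the lowest mesenchyme sum. WT replicate 1 was the highest library in 6 of the 9 progenitor markers, and KO replicate 2 the lowest in 5 of the 6 erythroid markers. In turn, KO replicate 2 was lowest in 2 of the 9 progenitor markers and WT replicate 1 highest in 0 of the 6 erythroid markers. The lowest progenitor sum was in KO replicate 3. The erythroid sum was 2334 in KO replicate 4 and 5025 in KO replicate 3. The part of these marker levels in the cell cycle values was not tested.

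**Figure D4:**
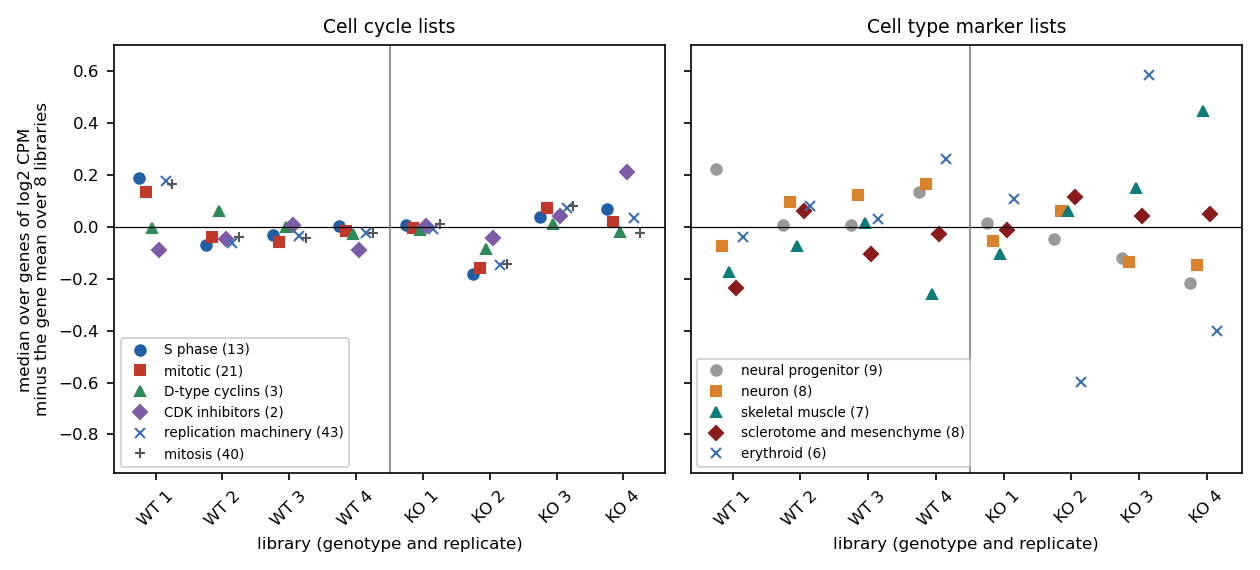
Median over the genes of each list of log2 CPM minus the gene's mean over 8 libraries (y axis) in each library (x axis); the number of genes is in brackets. The S phase and mitotic lists and the 2 further lists of the pathway lie together in each library. They are highest in WT replicate 1 and lowest in KO replicate 2. Of the marker lists on the right, the neural progenitor list is also highest in WT replicate 1 but lowest in KO replicate 4. The erythroid list is also lowest in KO replicate 2 but highest in KO replicate 3.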

How the data were processed

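The authors deposited whole-number read counts per Ensembl gene, 1 table for each library of total RNA. The submitters' processing notes name the counter featureCounts 1.4.6-p1, the aligner STAR 2.3.0e, FastQC 0.10.1, SAMtools 0.1.18, DESeq2 1.8.2 and build mm10. For settings, annotation release and strand, nothing is stated in the sources used here, and 7 members overlap a gene of 1000 or more summed counts on the other strand. The 5 summary rows were 0 and were left out.

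Symbols, coordinates and exon lengths came from GENCODE M21 (GRCm38, the assembly of mm10), in which 36602 identifiers matched. Groups came from sample titles. KO was set against WT by a robust quasi-likelihood fit in edgeR 4.0.16 (R 4.3.3) after filterByExpr and TMM scaling (factors 0.991 to 1.012). Genotype was the only term, and p-values of 16068 genes were adjusted after Benjamini and Hochberg, with a threshold of 0.05. Standard errors were derived from log2 fold change and F statistic. Log2 CPM used a prior count of 2. Each library in turn was left out, and scaling, low-count filter, a replicate block, DESeq2 1.42.0 and limma-voom with quality weights (3.58.1) were tried. Gene length was varied after the data were seen. The fit was also run on simulated counts, with the outcome not given here. Those counts were drawn independently for each gene, without shifts shared by many genes of a library. No 2 libraries of the same genotype agreed within counting noise. Figures used matplotlib 3.10.9.

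The members and lists were chosen with earlier results of these data known. Values per library are given for the D-type cyclins, CDK inhibitors, Mki67, Pcna, and in each role the gene with the smallest p and that with the highest CPM per kilobase; of the other lists, the 2 genes with the smallest p are named. Others were named after their values were seen, and Btg2, Mycn and Gadd45g by the rule. The planned comparison of cyclin D proteins was not run.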

Additional observations from a re-analysis of the deposited data

Results flagged for a closer look

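Single libraries stood apart from the other 3 of their group by Dixon's criterion (the gap to the nearest of them exceeded the 95% critical share of the group's range) in 9 of the 78 sets of 4 values tested, and chance flags about 1 in 20. In WT, replicate 1 was the high library for Mcm3 (284 CPM), Mcm4 (263 CPM), Ccnb1 (59.5 CPM), Aurka (99.2 CPM), Bub1 (144 CPM) and Tpx2 (298 CPM). In KO, replicate 2 was the low library for Cdc6 (39.3 CPM) and Top2a (653 CPM), and replicate 4 the high library for Cdkn1a (52.4 CPM). The members are not independent of each other, so these are not 9 separate events.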

How the results depend on the processing

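No cell cycle member was called in any of the 15 alternative fits, in which the smallest adjusted p of a member was 0.743 (limma-voom, Ccnd3). The medians over all members, S phase genes, mitotic genes and D-type cyclins moved by less than the spread between replicates in each fit, but the sign of the median over all members turned without WT replicate 1, without KO replicate 2 and with limma-voom. The number of members whose groups did not overlap was 0, and 0 to 1 when single libraries were left out (1, Ccnd1, without KO replicate 1). The share of all tested genes without overlap was 4.14% with all 8 libraries and is not given here for the smaller fits. The counts over all tested genes, 9 higher and 39 lower by edgeR, did depend on the fit: 22 and 81 with DESeq2, 20 and 95 with limma-voom, 2 and 14 with the replicate block, and 3 to 21 higher and 12 to 112 lower when single libraries were left out, the upper ends without WT replicate 1. The cause was not tested. Between libraries with the same replicate number, deviations correlated at −0.11, 0.28, −0.19 and −0.01 over genes for replicates 1 to 4. The closest partner carried the same number for replicate 2 alone. These values do not settle whether the numbers pair libraries, and the block changed no call of a member. Levels per kilobase of Ccnd1, Ccnd2, Ccnd3, Top2a, Pcna and Rrm2 rose with transcript length in place of merged exons. Those of Mcm4 and Mki67 kept their value. A single transcript is never longer than the merged exons of its gene, so these levels could not fall. Members were counted at 749 reads or more, so that spread between libraries, not depth, limits these comparisons.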
